A study of Mus musculus with 6 samples.

Results

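The 9 genes described here, Ripk1, Ripk3, Mlkl, Casp8, Gsdmd, Bax, Bcl2l1, Mcl1 and Bcl2a1b, encode effectors and inhibitors of necroptosis, apoptosis and pyroptosis. They were chosen by name for these roles, and all 9 were among the 20094 genes that could be tested, of 36047 to which transcripts were assigned. RNA was sequenced from the infarct area of the hearts of C57BL/6 mice (written C57BL6 in the labels) that had undergone ischemia/reperfusion (I/R), an occlusion of a coronary artery that is then released. The mice were female and 12 weeks old, the labels name no genotype beyond the strain, and tissue was taken 48 h after I/R in both groups. The 3 mice of one group received LGK-974, a small molecule that inhibits Porcupine (Porcn), the enzyme that attaches a lipid to Wnt proteins before their secretion. The 3 mice of the other group received the vehicle dimethyl sulfoxide (DMSO). There was no group without I/R, so the values compare infarcts under LGK-974 with infarcts under vehicle and not infarcts with healthy heart.

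In necroptosis, death receptors and innate sensors bring the kinases RIPK1 and RIPK3 together, and RIPK3 phosphorylates MLKL, which then permeabilizes the plasma membrane. Caspase-8 cleaves both kinases and so blocks this route, while it also starts apoptosis from the same receptors. In the mitochondrial route of apoptosis BAX opens the outer mitochondrial membrane, and the proteins of Bcl2l1 (BCL-XL), Mcl1 and Bcl2a1b (an A1 protein of leukocytes) hold it in check. In pyroptosis inflammatory caspases cleave gasdermin D, the product of Gsdmd, into a fragment that forms pores. Dying cardiomyocytes and infiltrating leukocytes of an infarct can use these routes, and the proteins are largely controlled by cleavage and phosphorylation, which RNA levels do not measure.

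The libraries held 41579787 to 80398211 estimated counts. Mitochondrial genes took 28.2 to 53.7% of them. Among 2013 genes of olfactory, vomeronasal and taste receptor families, which heart tissue should hardly use, the share with any count was 98.1% for DMSO replicate 1 and 48.0 to 79.5% for the remaining libraries, and the common dispersion of edgeR was 0.238 with that library and 0.0825 without it. Its effect is therefore given beside the results it touches. Porcn itself was at 2.20 ± 0.569 CPM in the LGK-974 group and 1.94 ± 0.482 CPM in the DMSO group (SD of 3 mice; CPM are counts scaled to library size by the TMM method of edgeR), a difference within the spread, and its RNA is not a readout of the inhibitor. Cardiomyocyte markers were abundant in all libraries, with a summed level of 44217 to 70143 CPM over 15 genes. The 16 leukocyte markers were all higher under LGK-974 on average, with a summed level of 672 to 882 CPM against 347 to 441 CPM under DMSO. Flow cytometry in the study went the other way. It counted fewer leukocytes and inflammatory monocytes with LGK-974, in whole hearts of other mice at the same time after I/R. RNA of the infarct area does not count cells, and the reason for this difference was not tested.

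Of the 9 cell death genes, 8 had a higher estimate under LGK-974, and the smallest p-values were those of Mlkl, the effector of necroptosis, and Casp8, which restrains necroptosis and starts apoptosis, with log2 fold changes of 0.72 and 0.76. No gene of the 9 passed an adjusted p of 0.05 in edgeR's quasi-likelihood test, and neither did any of the 20094 tested genes (0.00%), while DESeq2 called 289 genes (1.22%) and none of the 9. At an unadjusted p under 0.05 edgeR gave 4 of the 9, Ripk1, Mlkl, Casp8 and Bcl2a1b, all with higher means under LGK-974, where 13.4% of all tested genes reached this level (6.26% higher and 7.18% lower). Without DMSO replicate 1 the count was 2, Mlkl and Casp8, where 11.0% of all genes tested in that fit reached this level. In 3 of the 9 (Ripk1, Mlkl and Casp8) every LGK-974 library lay above every DMSO library, against 10.7% of all tested genes that were separated in this direction, 7.27% in the other and 18.0% in either. The median log2 fold change of the 9 genes was 0.47, beside a median of −0.13 over all tested genes, of which 40.5% had a positive estimate. This median over all genes depended on single libraries. It was −0.021 without DMSO replicate 1 and 0.016 without DMSO replicate 3. In whole tissue, more or fewer cells of a type cannot be told apart from more or less RNA per cell. The higher level of leukocyte markers under LGK-974 stands beside each of these values. Its part in them was not tested.

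**Figure D1:**
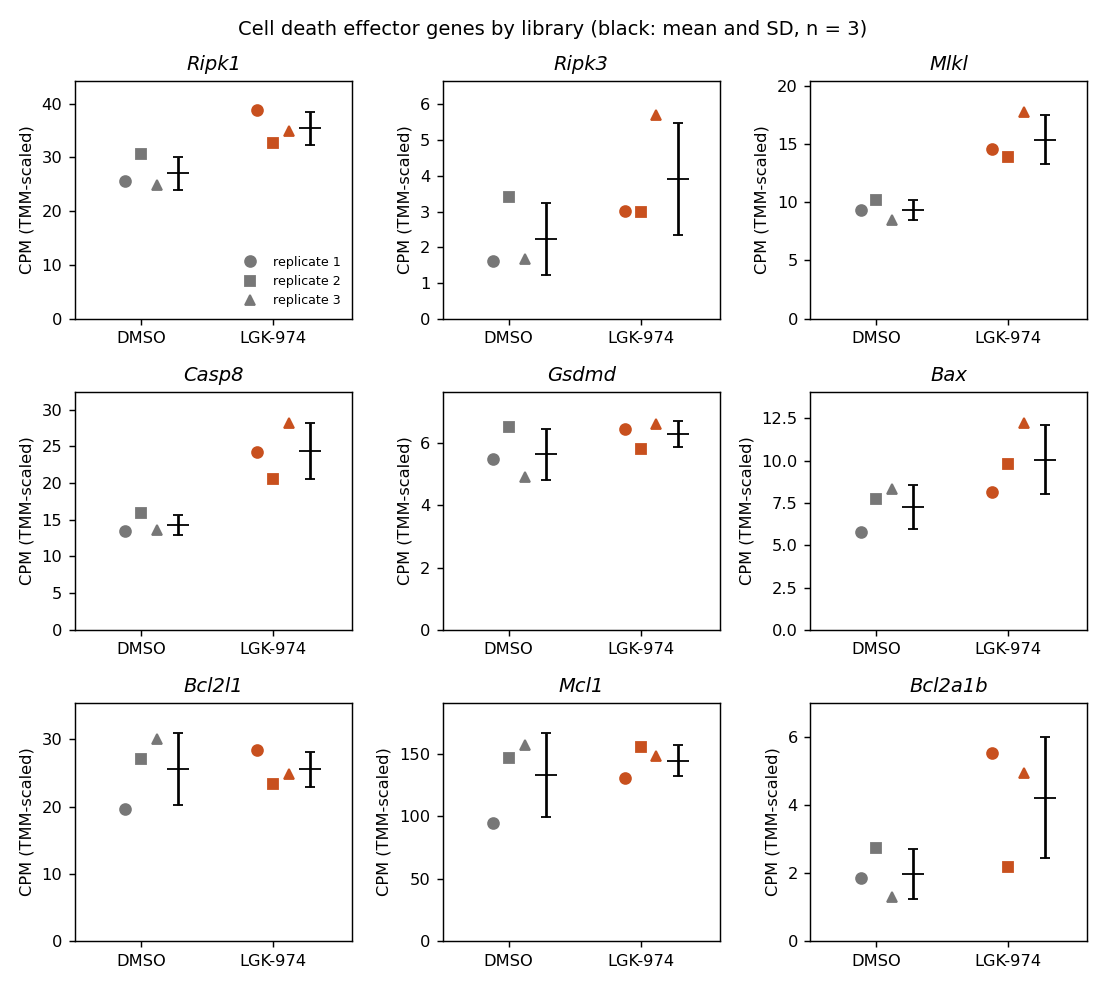
Level of each cell death gene in CPM (TMM-scaled, linear axes from 0) in the 6 libraries, with circles, squares and triangles for replicates 1, 2 and 3 and black bars for the mean and SD of 3 mice. The groups do not overlap for Ripk1, Mlkl and Casp8, whereas Bcl2l1 has means of 25.6 CPM in both groups.

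Casp8, the initiator caspase that also restrains necroptosis, lies on chromosome 1 of GRCm38 from 58795374 to 58847503 on the plus strand, and no exon of another gene overlaps its exons. Its level was 24.3, 20.5 and 28.1 CPM in LGK-974 replicates 1, 2 and 3 and 13.5, 15.9 and 13.6 CPM in DMSO replicates 1, 2 and 3. The lowest LGK-974 library was above the highest DMSO library. The log2 fold change was 0.76 (standard error 0.170, 95% interval 0.37 to 1.16), with an unadjusted p of 0.00221 and an adjusted p of 0.368 from edgeR's quasi-likelihood test. In DESeq2 the adjusted p was 0.0555. The difference kept its direction and an unadjusted p under 0.05 in 14 of 14 alternative fits, with log2 fold changes of 0.69 to 0.93 and adjusted p-values of 0.0521 to 0.772. The gene's reads fell mainly on transcript Casp8-202, with 61.4% ± 11.0 of its TPM, the authors' length-scaled transcript abundance (SD over 6 libraries), and on Casp8-201 with 37.1% ± 9.91. Both encode protein.

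Mlkl, whose product carries out necroptosis at the membrane, lies on chromosome 8 from 111311797 to 111338177 on the minus strand and shares no exon bases with another gene. It was at 14.5, 13.9 and 17.8 CPM in LGK-974 replicates 1 to 3 and at 9.35, 10.2 and 8.47 CPM in DMSO replicates 1 to 3. The groups were separated by more than the range of the DMSO group, and the SD was 2.09 CPM under LGK-974 and 0.842 CPM under DMSO (n = 3 each). The log2 fold change was 0.72 (standard error 0.174, 95% interval 0.32 to 1.13), with an unadjusted p of 0.00340 and an adjusted p of 0.368 in edgeR, and of 0.0821 in DESeq2. As for Casp8, the direction and an unadjusted p under 0.05 held in 14 of 14 alternative fits, with log2 fold changes of 0.65 to 0.88 and adjusted p-values of 0.0703 to 0.772. Across the 6 libraries Mlkl and Casp8 had the highest Pearson correlation of the 36 pairs among the 9 genes (r = 0.99 on log2 CPM, a description over 6 libraries that share their group and tissue mixture). The lowest of the 36 was −0.02, for Mlkl and Bcl2l1, and the median was 0.73.

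Since Casp8 and Mlkl were high and low in the same libraries, the 120 bases before a start site of each are shown, in GRCm38.p6 from RefSeq and read 5′ to 3′ along the gene. The Casp8 window is chr1:58802382-58802501 on the plus strand, before the start of Casp8-202, which held 66.1% of the gene's TPM summed over the libraries. The Mlkl window is chr8:111338206-111338325 on the minus strand, before the shared start of Mlkl-201 and Mlkl-202, which held 80.5% by the same sum.
Casp8: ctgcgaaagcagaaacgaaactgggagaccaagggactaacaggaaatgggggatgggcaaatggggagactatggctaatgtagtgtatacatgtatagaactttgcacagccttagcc
Mlkl: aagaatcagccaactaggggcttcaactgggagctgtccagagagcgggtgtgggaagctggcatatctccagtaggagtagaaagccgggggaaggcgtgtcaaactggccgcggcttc
Motifs were searched on both strands of the 300 bases around each start: the interferon-gamma activated site TTCNNNGAA, the interferon-stimulated response element, which is GAAA, any 2 bases and GAAA again, the AP-1 site TGANTCA and the PU.1 core GAGGAA. Their letters were found in 8.30%, 3.44%, 7.81% and 28.3% of 32851 mouse promoters of this length. None of them was found around this Casp8 start or this Mlkl start, so both windows are in lower case throughout. The start of Casp8-201 was not searched. Of the other genes with a promoter sequence here, Ripk3, Bax, Bcl2l1 and Mcl1 had 0 matches as well, and Ripk1 and Bcl2a1b had matches that are shown with those genes. Transcripts beginning within 50 bases of the searched starts held 45.3% of the TPM of Ripk3 and 65.2% of that of Bax. For the starts of Bcl2l1 these shares were 16.0, 0 and 21.8%, and for Mcl1 0%, so other starts of these genes were not searched.

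Ripk1, the kinase upstream of both necroptosis and caspase-8, lies on chromosome 13 from 34002363 to 34037147 on the plus strand. Its exons overlap those of Serpinb6a on the opposite strand over 241 bases and a processed pseudogene, Gm17084, over 511 bases, and since the counting is not stated to use strand, reads there cannot be assigned with certainty. Ripk1 was at 38.7, 32.6 and 34.9 CPM in the LGK-974 libraries and at 25.6, 30.6 and 24.9 CPM in the DMSO libraries. The groups did not overlap, but replicates 2 of the groups lay close together. Ripk1 had a log2 fold change of 0.39 (standard error 0.152, 95% interval 0.04 to 0.74; unadjusted p = 0.0340, adjusted p = 0.368, edgeR). The unadjusted p rose above 0.05 in 7 of 14 alternative fits, among them those without LGK-974 replicate 1 (0.134), LGK-974 replicate 3 (0.0587), DMSO replicate 1 (0.0505) or DMSO replicate 3 (0.0615), while the log2 fold change stayed between 0.31 and 0.54.

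Ripk1 transcripts annotated as retaining an intron, Ripk1-202 and Ripk1-205, held 31.6, 28.9 and 29.1% of the gene's TPM under LGK-974 and 43.4, 34.0 and 42.2% under DMSO. These shares did not overlap between groups, and the highest was that of DMSO replicate 1. How many of all genes have such shares without overlap was not determined. The Ripk1 shares were singled out after the values were seen and were not tested. Ripk1-201, the main coding transcript, held 56.4% ± 8.38 of the TPM (SD over 6 libraries). RefSeq gives the gene a pair of starts. The one at which Ripk1-201 and Ripk1-202 begin, with 72.0% of the TPM summed over the libraries, held none of the 4 motifs. The start of the long transcript Ripk1-203, with only 5.59% by the same sum, held several. The window shown is chr13:34002749-34002878 on the plus strand of GRCm38.p6, from 125 bases before this start to 5 bases after it, and the capitals mark a PU.1 core, the interferon-gamma activated site at 2 places, and an interferon-stimulated response element that overlaps the latter of them.
Ripk1: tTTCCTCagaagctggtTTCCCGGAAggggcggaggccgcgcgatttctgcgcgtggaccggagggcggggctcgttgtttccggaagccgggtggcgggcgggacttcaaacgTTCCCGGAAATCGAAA
A match of letters describes the sequence only.

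Ripk3, the kinase that activates MLKL, lies on chromosome 14 from 55784995 to 55788865 on the minus strand and was measured with 64 to 365 counts per library. It was at 3.03, 2.99 and 5.72 CPM under LGK-974 and at 1.61, 3.39 and 1.67 CPM under DMSO. DMSO replicate 2 lay above LGK-974 replicates 1 and 2, and LGK-974 replicate 3 stood above the rest. The difference on the log2 scale was 0.81 (standard error 0.438, 95% interval −0.21 to 1.83; unadjusted p = 0.103, adjusted p = 0.401, edgeR). With counts scaled from TPM, which takes account of transcript length, it was 0.10, and without LGK-974 replicate 3 it was 0.49, so the size of the Ripk3 difference was not fixed by these data. The share of Ripk3's TPM on transcripts annotated as coding ranged from 21.1 to 100% over the 6 libraries, which shows how unevenly its few reads were spread. The log2 ratio of Ripk3 to Ripk1 differed by 0.44 between groups (exact permutation p = 0.4, two-sided) and that of Mlkl to Ripk1 by 0.33 (−1.21 ± 0.222 against −1.53 ± 0.0697, SD, n = 3; exact permutation p = 0.1, the smallest that 3 against 3 mice allow; 0.25 after Benjamini-Hochberg adjustment over 5 ratios).

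Gsdmd, on chromosome 15 from 75862327 to 75867408 on the plus strand, had levels that overlapped between groups. It was at 6.44, 5.80 and 6.62 CPM in the LGK-974 libraries and at 5.48, 6.52 and 4.91 CPM in the DMSO libraries. The log2 fold change of 0.16 (standard error 0.211, 95% interval −0.33 to 0.65; unadjusted p = 0.476, edgeR) was within the spread between mice, and the interval leaves room for changes in either direction. Only 48.4% ± 9.16 of the TPM of Gsdmd was on the coding transcript Gsdmd-201 (SD over 6 libraries). Transcripts annotated as retaining an intron held 53.3% ± 8.09 under LGK-974 and 49.5% ± 10.8 under DMSO (SD, n = 3 each). A promoter sequence for Gsdmd was not analysed here.

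Bax, the pore-forming protein of the mitochondrial route, lies on chromosome 7 from 45461697 to 45466898 on the minus strand and shares 192 exon bases with Gm45808 on the same strand, so its reads are in part uncertain. It was at 8.15, 9.80 and 12.2 CPM under LGK-974 and at 5.78, 7.72 and 8.30 CPM under DMSO. The groups overlapped only through LGK-974 replicate 1 and DMSO replicate 3. Bax had a log2 fold change of 0.47 (standard error 0.232, 95% interval −0.07 to 1.01; unadjusted p = 0.0798, adjusted p = 0.379, edgeR), and the unadjusted p was under 0.05 in 2 of 14 alternative fits, with counts scaled from TPM and without DMSO replicate 3. The retained-intron transcript Bax-206 held 14.5% ± 7.35 of the TPM of Bax under LGK-974 and 30.8% ± 16.4 under DMSO (SD, n = 3 each). The shares in replicates 1 to 3 were 18.1, 19.2 and 6.0% against 48.0, 15.5 and 28.8%. They overlapped, the highest was that of DMSO replicate 1, and the difference was not tested.

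The anti-apoptotic genes Bcl2l1 and Mcl1 did not pass the test, and their intervals reached to both sides of 0. Bcl2l1, on chromosome 2 from 152780668 to 152831728 on the minus strand, was at 28.4, 23.4 and 24.9 CPM under LGK-974 and at 19.7, 27.1 and 30.1 CPM under DMSO. Its DMSO libraries enclosed the LGK-974 libraries. Bcl2l1 had a log2 fold change of −0.0041 (standard error 0.191, 95% interval −0.45 to 0.44; unadjusted p = 0.983, edgeR), and its sign depended on the fit. Mcl1, on chromosome 3 from 95658788 to 95663176 on the plus strand, was at 131, 155 and 148 CPM under LGK-974 and at 94.7, 147 and 158 CPM under DMSO. DMSO replicate 1 was the low value, and without it the log2 fold change turned from 0.12 (standard error 0.225, 95% interval −0.40 to 0.64; unadjusted p = 0.606, edgeR) to −0.06. The short transcript Mcl1-202 held 27.9% ± 7.99 of the TPM of Mcl1 and Mcl1-201 the rest (SD over 6 libraries).

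Set against Bax within each library, both inhibitors were lower on average under LGK-974. The log2 ratio of Mcl1 to Bax was 4.0, 3.99 and 3.60 in the LGK-974 libraries and 4.03, 4.25 and 4.25 in the DMSO libraries. These did not overlap, but replicates 1 of the groups lay close together. The difference was −0.31 (exact permutation p = 0.1, two-sided, the smallest possible with 3 against 3 mice; 0.25 after adjustment over 5 ratios). For Bcl2l1 to Bax the log2 ratio was 1.80, 1.25 and 1.02 under LGK-974 and 1.77, 1.81 and 1.86 under DMSO, where the DMSO libraries lay close together. The difference was −0.45 (exact permutation p = 0.2; 0.333 adjusted). The log2 ratio of Bcl2l1 to Mcl1 differed by −0.14 (exact permutation p = 0.5).

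Bcl2a1b, an anti-apoptotic gene best known from leukocytes, lies on chromosome 9 from 89199209 to 89207827 on the plus strand. It shares 401 exon bases with Gm29094 and has near-identical copies on the same chromosome, so the program that assigned reads had to divide them by few distinguishing bases. The coding sequences have 516 bases each, of which 11 differ in Bcl2a1a (97.9% identity) and 6 in Bcl2a1d (98.8%), with identical runs of up to 217 bases. The first 90 coding bases of the 3 genes, from GENCODE transcripts of GRCm38, hold 6 of the differing positions, in capitals.
Bcl2a1b: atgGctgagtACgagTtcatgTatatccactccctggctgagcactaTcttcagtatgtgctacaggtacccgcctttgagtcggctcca
Bcl2a1a: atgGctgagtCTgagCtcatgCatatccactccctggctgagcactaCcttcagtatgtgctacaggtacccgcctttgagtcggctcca
Bcl2a1d: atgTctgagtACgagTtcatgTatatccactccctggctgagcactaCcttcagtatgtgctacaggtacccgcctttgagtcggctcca
Their transcripts start at 88956900 and end at 88962419 (Bcl2a1a, plus strand) and lie between 88723285 and 88731914 (Bcl2a1d, minus strand) of chromosome 9.

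The estimate for Bcl2a1b was 5.54, 2.18 and 4.95 CPM under LGK-974 and 1.86, 2.75 and 1.30 CPM under DMSO. LGK-974 replicate 2 lay within the DMSO range and the other LGK-974 libraries above it. The log2 fold change was 1.10 (standard error 0.455, 95% interval 0.04 to 2.15; unadjusted p = 0.0431, adjusted p = 0.368, edgeR), which among the 9 genes is the largest estimate with the largest standard error. The unadjusted p was under 0.05 in 7 of 14 alternative fits and was lost without LGK-974 replicate 1 (0.173), LGK-974 replicate 3 (0.0977), DMSO replicate 1 (0.0504) or DMSO replicate 3 (0.0745). Bcl2a1a had a log2 fold change of −1.10 (unadjusted p = 0.422) and Bcl2a1d of −0.03 (unadjusted p = 0.977), both on at most 53 counts per library, and Bcl2a1c had too few counts for a test. Bcl2a1b held 80.7 to 87.4% of the summed CPM of the 4 copies under LGK-974 and 53.6 to 72.3% under DMSO. The sum, which does not depend on how reads were divided between copies, was 6.34, 2.71 and 6.04 CPM against 3.47, 3.81 and 2.04 CPM, with a log2 fold change of 0.70 that did not pass (unadjusted p = 0.125, edgeR). It leaves out Gm29094, so it still depends on how reads were divided with that gene.

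The promoter of Bcl2a1b held an AP-1 site and several PU.1 cores, a pattern that Bcl2a1a and Bcl2a1d shared. The window chr9:89199093-89199172 on the plus strand of GRCm38.p6, from 180 to 101 bases before the RefSeq start, at which no GENCODE transcript of the gene begins within 50 bases (0% of its TPM), is shown with the AP-1 site and the PU.1 cores in capitals, where the cores are read on either strand.
Bcl2a1b: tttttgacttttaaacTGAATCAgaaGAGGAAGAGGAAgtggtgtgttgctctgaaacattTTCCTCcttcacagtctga

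Levels were compared between genes in TPM, which are scaled to transcript length. Mcl1 was the most abundant of the 9, at 62.2 ± 25.2 TPM under LGK-974 and 48.1 ± 23.3 under DMSO (SD, n = 3 each), followed by Bcl2l1, Bax, Ripk1, Casp8, Mlkl, Gsdmd, Bcl2a1b and Ripk3. Ripk3, at 4.51 ± 4.33 and 2.89 ± 0.834 TPM, was the lowest of the necroptosis genes. Mcl1 exceeded Bcl2l1 in 6 of 6 libraries, by a mean log2 ratio of 1.36 ± 0.299 (SD over 6 libraries). The steps from Bcl2l1 to Bax, Bax to Ripk1, Casp8 to Mlkl and Mlkl to Gsdmd had the same direction in 6 of 6 libraries, although the smallest log2 ratio was between 0.01 and 0.09 in each. Casp8 was above Ripk1 in LGK-974 replicate 3 and below it in the other 5 libraries. Gsdmd, Bcl2a1b and Ripk3 could not be ordered, since neighbours differed by mean log2 ratios of 0.40 ± 0.746 and 0.40 ± 0.817 and kept their order in 4 of 6 libraries. The TPM of LGK-974 replicate 3 was the highest of the 6 libraries for each of the 9 genes, and that library had the lowest mitochondrial share (28.2%), which enters the TPM sum.

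**Figure D2:**
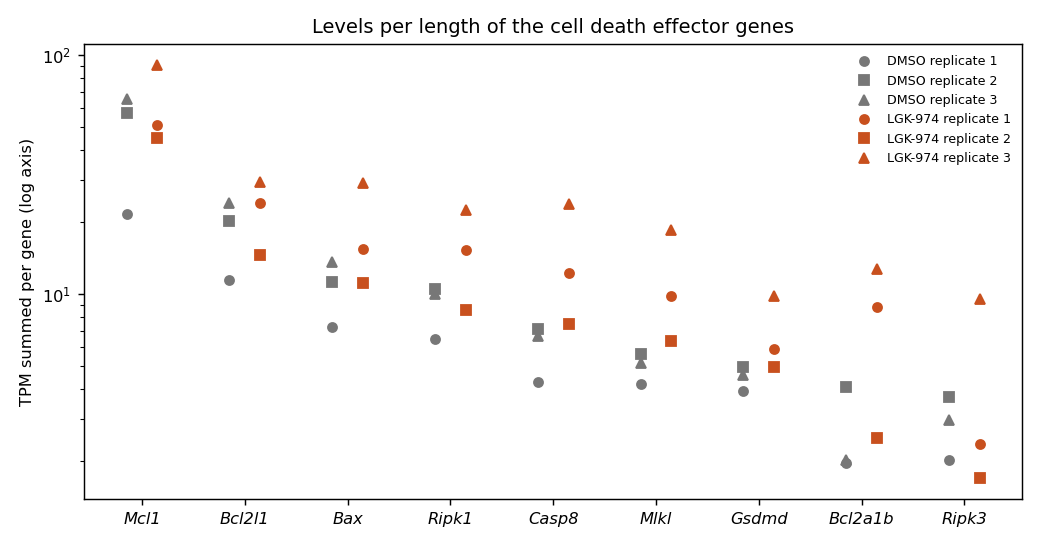
TPM summed per gene (log axis) for the 9 genes in order of their mean, with 1 point per library, LGK-974 in orange and DMSO in grey, and shapes for replicates. Mcl1 is above the other genes in each library and Ripk3, Bcl2a1b and Gsdmd overlap at the low end.

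Beyond the 9 genes, 72 other genes of these pathways were examined, of which 70 could be tested. Of these, 42 had positive and 28 negative log2 fold changes, with a median of 0.07, and 5 were higher and 1 lower at an unadjusted p under 0.05. This is 6 of 70 in all, beside 13.4% of all tested genes, and the number was 4 without LGK-974 replicate 1 (8.13% of all genes) and 2 without LGK-974 replicate 3 (4.16%). Without overlap between groups, 9 of the 70 were higher and 3 lower under LGK-974. Among all tested genes 10.7% were separated upward, 7.27% downward and 18.0% in either direction. No gene of these lists passed the adjusted threshold in edgeR. Of the 6, Casp1 and Zbp1 kept an unadjusted p under 0.05 with each mouse left out in turn. It was lost for Mefv without LGK-974 replicate 3 (0.0857) or DMSO replicate 2 (0.0691), for Bak1 without DMSO replicate 1 (0.0522), LGK-974 replicate 1 (0.0637) or LGK-974 replicate 3 (0.108), for Bnip3 without DMSO replicate 3 (0.154) or LGK-974 replicate 3 (0.103), and for Tnfrsf1a without DMSO replicate 1 (0.0650) or any 1 of the LGK-974 mice (0.0587 to 0.121).

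Among 23 genes of death receptor and necroptosis signalling the median log2 fold change was 0.07 (16 positive, 7 negative). Zbp1, a sensor of nucleic acids that can engage RIPK3, was at 6.82, 7.63 and 16.9 CPM under LGK-974 and 5.15, 4.78 and 3.0 CPM under DMSO. The groups did not overlap, with a log2 fold change of 1.28 (standard error 0.398, unadjusted p = 0.0129, edgeR) that was 0.82 without LGK-974 replicate 3. The receptor gene Tnfrsf1a, at 0.50 (standard error 0.206, unadjusted p = 0.0424), and its ligand Tnf, at 0.89 (standard error 0.399, unadjusted p = 0.0563), were separated between groups as well, Tnf at 1.06 to 2.49 CPM and so on few reads.

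Casp1, the inflammatory caspase that cleaves gasdermin D, was at 4.43, 5.95 and 4.63 CPM under LGK-974 and 2.79, 2.25 and 1.92 CPM under DMSO. The groups did not overlap, with a log2 fold change of 1.11 (standard error 0.286, unadjusted p = 0.00496, edgeR). Mefv, which encodes the inflammasome sensor pyrin, was also separated, with a log2 fold change of 1.22 (standard error 0.417, unadjusted p = 0.0197). Gsdme, which encodes another gasdermin, was at 8.99 ± 1.41 CPM under LGK-974 and 14.1 ± 5.97 under DMSO (SD, n = 3), of which DMSO replicate 1 had 20.9 CPM, and its log2 fold change of −0.65 (unadjusted p = 0.0653) was −0.23 without that library. Over the 18 genes of this list the median was 0.13, with 11 positive and 7 negative.

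Of 12 pro-apoptotic BCL2 genes, Bak1, the partner of Bax in opening mitochondria, and Bnip3, a mitochondrial protein induced by hypoxia, had estimates of opposite sign. Bak1 had a log2 fold change of 0.67 (standard error 0.256, unadjusted p = 0.0315, edgeR), with 23.9 to 39.3 CPM under LGK-974 and 14.6 to 25.3 CPM under DMSO, which overlap. Bnip3 was at 38.8, 43.7 and 21.5 CPM under LGK-974 and at 55.9, 48.4 and 77.4 CPM under DMSO without overlap, with a log2 fold change of −0.80 (standard error 0.295, unadjusted p = 0.0267) that was −0.49 without LGK-974 replicate 3 and −0.47 without DMSO replicate 3. Hrk, another promoter of apoptosis, was also lower without overlap, with −1.15 (unadjusted p = 0.0541) on at most 90 counts per library. The median of this list was −0.03 (5 positive, 7 negative).

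Of the 6 further anti-apoptotic genes 4 could be tested, with a median of 0.03. Bcl2 was separated between groups, at 18.2 to 22.0 against 14.7 to 17.9 CPM, with a log2 fold change of 0.36 (unadjusted p = 0.0501, edgeR), and Bcl2l2 was at 0.09 (unadjusted p = 0.584). Among 13 genes of the apoptosome, caspases and their inhibitors, none was at an unadjusted p under 0.05 and the median was 0.04 (8 positive, 5 negative). Dffb, the nuclease that cuts DNA in apoptosis, was lower without overlap between groups, with −0.58 (unadjusted p = 0.0647).

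**Figure D3:**
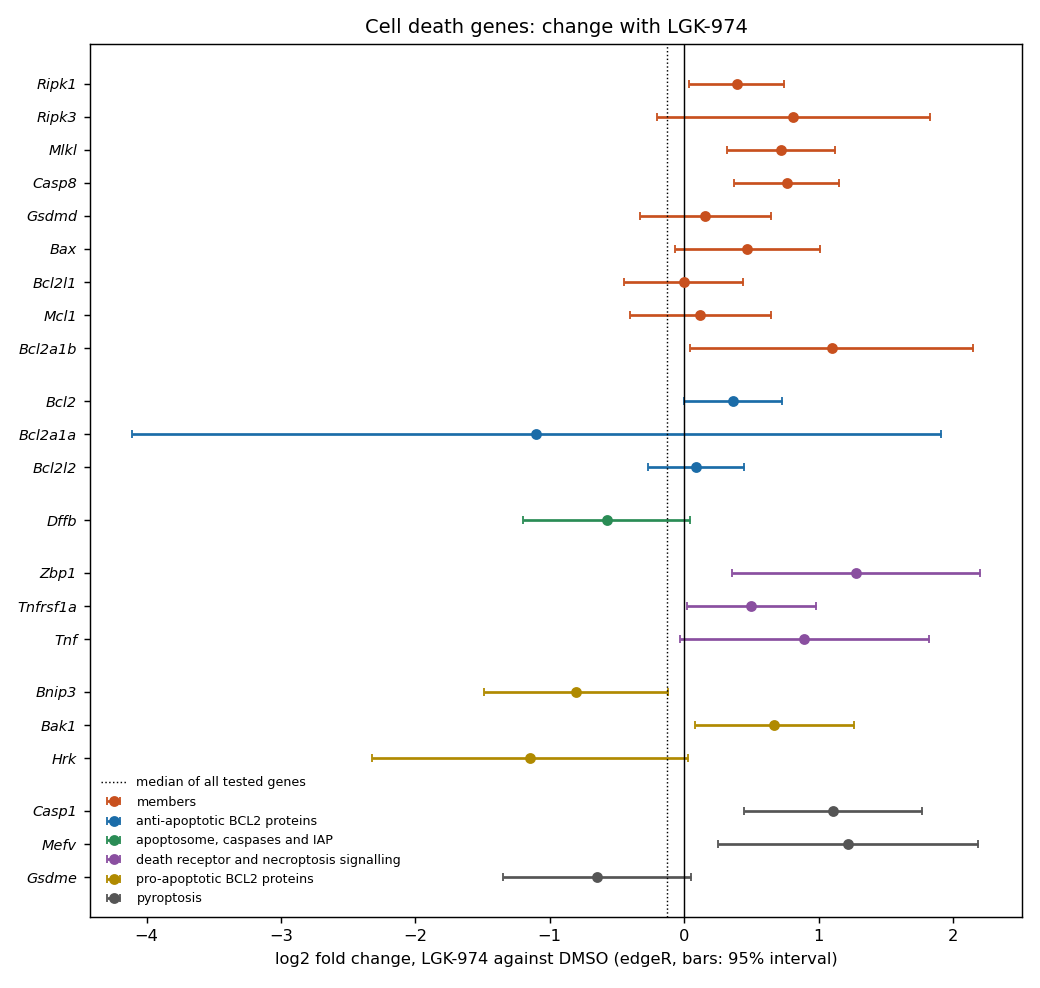
Estimated log2 difference between LGK-974 and DMSO mice (points) with 95% intervals (bars) from edgeR for the 9 genes, listed as members, and for up to 3 genes with the smallest p-values of each of 5 pathway lists; the dotted line is the median of all tested genes (−0.13). Among the 9 genes the intervals of Casp8 and Mlkl lie farthest above 0 (0.37 to 1.16 and 0.32 to 1.13), and those of Bcl2l1 and Mcl1 lie across 0.

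The marker lists whose summed levels did not overlap between the groups were those of leukocytes, of monocytes and macrophages, and of fibroblasts. All 16 leukocyte markers had positive log2 fold changes, with a median of 0.99, and 14 were at an unadjusted p under 0.05. For monocytes and macrophages 11 of 12 were positive, with a median of 0.85 and a summed level of 636 to 708 against 329 to 456 CPM. All 10 fibroblast markers were positive, with a median of 0.54 and a summed level of 3508 to 6027 against 1725 to 2536 CPM. Their estimates ran from 0.0054 to 1.56, and only 4 of the 10 were at an unadjusted p under 0.05 (edgeR). For cardiomyocytes 14 of 15 markers were negative, with a median of −0.42, and none of these 14 was at that level. The remaining marker was positive (0.86) and reached it. The summed cardiomyocyte levels overlapped, at 44217 to 62706 against 50458 to 70143 CPM. The medians of the lists without overlap were 0.99 (leukocytes), 0.85 (monocytes and macrophages) and 0.54 (fibroblasts). Beside them, the log2 fold changes were 0.76 for Casp8, 0.72 for Mlkl, 0.39 for Ripk1 and 1.10 for Bcl2a1b. Neutrophil markers had a summed level of 62.9 to 91.8 against 90.4 to 175 CPM, with 4 of 10 (Camp, Ltf, Ly6g and Retnlg) too low to test. T cell markers were at 24.1 to 32.1 against 27.3 to 60.8 CPM, B cell markers at 14.2 to 15.3 against 9.36 to 26.3 CPM, endothelial markers at 805 to 883 against 709 to 1008 CPM and mural cell markers at 503 to 684 against 476 to 728 CPM, and these overlapped. How far leukocytes or fibroblasts carried the cell death transcripts was not tested.

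**Figure D4:**
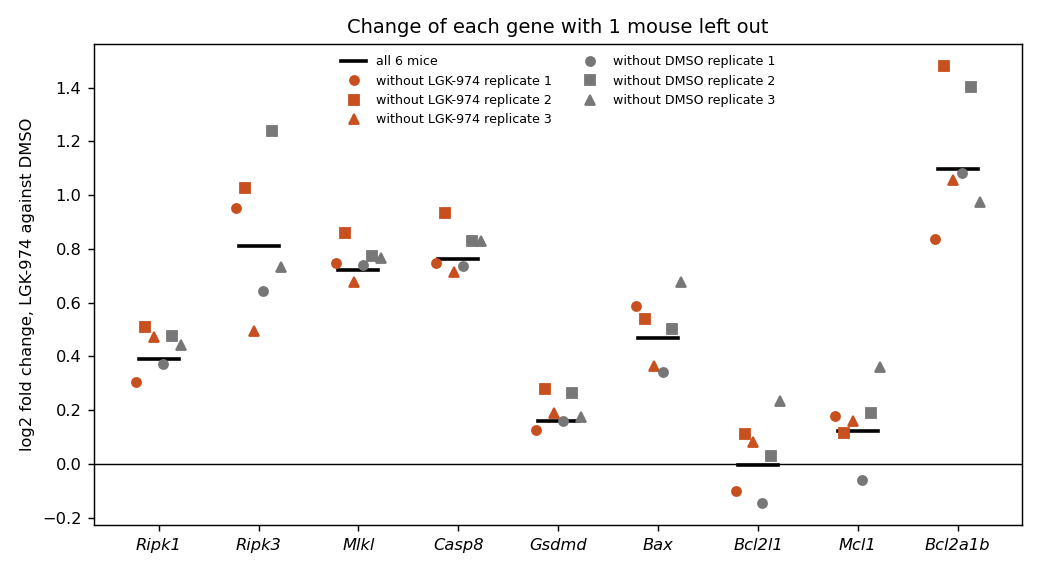
Log2 fold change of each of the 9 genes with all 6 mice (black bars) and with 1 mouse left out (points, orange for a LGK-974 mouse and grey for a DMSO mouse). Casp8 stays between 0.71 and 0.93 and Mlkl between 0.68 and 0.86, while Ripk3 spans 0.49 to 1.24 and Bcl2l1 lies on both sides of 0.

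With 1 mouse left out at a time, the estimate moved least for Gsdmd (0.13 to 0.28), which was near 0 throughout, followed by Mlkl (0.68 to 0.86), Ripk1 (0.31 to 0.51) and Casp8 (0.71 to 0.93). An unadjusted p under 0.05 was kept in each of these fits by Mlkl and Casp8 but not by Ripk1. Bcl2a1b (0.84 to 1.48) and Ripk3 (0.49 to 1.24), the genes with the fewest counts, moved the most. Bax stayed between 0.34 and 0.68, Mcl1 between −0.06 and 0.36 and Bcl2l1 between −0.15 and 0.23.

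For each of the 9 genes the protein-coding gene with the most similar pattern over the 6 libraries was determined by Pearson's r of log2 CPM, as a description among 17962 genes. It was Pak1 for Casp8 (r = 0.999), Cybb, a subunit of the phagocyte oxidase, for Mlkl (0.996), Gmfb for Ripk1 (0.997), Dcp2 for Ripk3 (0.998), Man2b1 for Bax (0.996), Reep5 for Mcl1 (0.998), Arhgap27 for Bcl2l1 (0.995), Uba2 for Gsdmd (0.989) and Rps12-ps3 for Bcl2a1b (0.986). With 6 libraries such values are common. An r above 0.95 was reached by 377 genes for Casp8, 227 for Mlkl, 211 for Mcl1 and 208 for Bax, but by 71 for Ripk1, 35 for Bcl2a1b, 30 for Bcl2l1, 101 for Ripk3 and 14 for Gsdmd. Casp8 and Mlkl thus shared their pattern with many genes, and Gsdmd with few.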

How the data were processed

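Each mouse gave 1 library. Total RNA of the infarct area was extracted with Trizol and depleted of ribosomal RNA, and libraries were made with the TrueSeq RNA Access kit and sequenced on a HiSeq2000 instrument. The authors quantified transcripts with Kallisto (version not given in the sources used here) on GRCm38, the build in the submitters' processing notes, and deposited, per library, 118489 transcripts with their estimated counts and TPM. Estimated counts divide reads that fit several transcripts, so values of near-identical or overlapping genes are uncertain. Here 98.6% of the transcripts were joined to genes with GENCODE release M21 (GRCm38), and the counts of a gene were added up and rounded.

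Genes that reached 10 counts in 3 or more samples were tested with edgeR 4.0.16 (R 4.3.3), using TMM scaling, the quasi-likelihood test, no covariate besides treatment, and a threshold of 0.05 on p-values adjusted over all tested genes after Benjamini and Hochberg. DESeq2 1.42.0, the tool of the study, and limma-voom (limma 3.58.1) were alternatives, with RLE scaling, no filter, at least 100 counts, protein-coding genes only, counts scaled from TPM, summed Bcl2a1 copies, a replicate block and each mouse left out. The deposited TPM were summed per gene for levels, with 0.1 added for ratios, and log2 CPM had 0.5 added for likeness. Exact permutation tests were two-sided over the 20 splits of 6 mice; the ratios to Mcl1 and Ripk1 were added after the values were seen. The scripts were tested on simulated data in which 200 genes had a log2 change of 2. At the fitted dispersion edgeR recovered 74.0% of them, with 11 of its 159 calls false. DESeq2 recovered 83.0%, with 87 of its 253 calls false. Named were the 9 genes, Porcn, the Bcl2a1 copies, up to 3 genes per pathway list with the smallest p-values and the most similar gene of each member, except that some genes the rule names are not reported here; other marker genes are named where too low to test. The genes and lists were chosen with earlier results of these data known. Depth was 41579787 to 80398211 counts per library, and counting error was not separated from the spread between mice. Promoters (250 bases before to 50 after a start) came from RefSeq. Python 3.11.15, pandas 2.3.3, NumPy 2.4.6 and matplotlib 3.10.9 were used.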

Additional observations from a re-analysis of the deposited data

How the results depend on the processing

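Casp8 and Mlkl kept an unadjusted p under 0.05 in 14 of 14 alternatives, Ripk1 and Bcl2a1b in 7, Ripk3 and Bax in 2, and Gsdmd, Bcl2l1 and Mcl1 in 0. The number of genes called over all genes was 0 in the reported test, 289 with DESeq2, 1206 with no filter on low counts and 0 to 2 with a mouse left out (2 without DMSO replicate 1). The number of the 9 genes at an unadjusted p under 0.05 was 4 (13.4% of all genes), or 2 with at least 100 counts in 3 samples (16.5%). With a mouse left out it was 2 to 5: 2 without LGK-974 replicate 1 (8.13% of all genes), LGK-974 replicate 3 (4.16%) or DMSO replicate 1 (11.0%), 3 without DMSO replicate 3 (23.2%), 4 without LGK-974 replicate 2 (9.28%) and 5 without DMSO replicate 2 (13.4%). Pathway genes at this level numbered 6, and 2 to 8 with a mouse left out (2 without LGK-974 replicate 3, 4 without LGK-974 replicate 1), or 9 with no filter. Their median log2 fold change was 0.20 with no filter and 0.051 to 0.21 with a mouse left out. With counts scaled from TPM, 5 of the 9 genes (Gsdmd and Bax besides Ripk1, Mlkl and Casp8) were higher without overlap rather than 3, beside 9.6% of all genes against 10.7%. The adjusted p fell below 0.05 with no filter for Casp1 and Zbp1. With the replicate number as a block, 2 of the 9 genes (Mlkl and Casp8) were at an unadjusted p under 0.05, and 3312 genes in all (16.5%) with 0 called. Deviations from the group means correlated between same-numbered libraries for numbers 1 (r = 0.49) and 3 (0.32) but not for number 2 (−0.06), and the mice are different animals, so a pairing was not shown for every number and the block was not used in the reported test.

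The sign of small estimates depended on the fit. Bcl2l1 turned positive with DESeq2 (0.024), limma-voom (0.013), no filter (0.12), the replicate block (0.012) and RLE scaling (0.016), and ranged from −0.15 to 0.23 with a mouse left out. Bcl2a1d turned positive with counts scaled from TPM (0.034), DESeq2 (0.021), limma-voom (0.34), no filter (0.23), the replicate block (0.26) and RLE scaling (0.0056), and ranged from −0.41 to 0.70 with a mouse left out. Over the same fits Mcl1 ranged from −0.059 (without DMSO replicate 1) to 0.36, Bcl2l2 from −0.0020 to 0.28 and Porcn from −0.022 to 0.44. The cause of these shifts was not tested.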
